A study of Mus musculus with 16 samples.

Results

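The 7 ion channel genes Scn4a, Scn7a, Scn10a, Scn4b, Scn3b, Hcn2 and Hcn4 were followed in the left ventricle of mice with and without PKM2. They were found by symbol in the deposited table, which lists 55492 genes. All 7 were present, and all 7 passed the filter on low values (a mean of at least 10 normalized counts over the 16 libraries), which left 20576 genes to be tested.

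The hearts came from male C57BL/6 mice of 8 to 12 weeks. PKM2-/- mice lack PKM2, the isoform of pyruvate kinase muscle that carries exon 10, in every tissue, because the exon was excised by Cre under a CMV promoter and the Cre allele was then bred out. PKM2fl/fl mice, the controls, carry the floxed exon and no Cre. Each genotype had 2 unoperated hearts (baseline), 3 hearts taken 3 days after sham surgery and 3 hearts taken 3 days after myocardial infarction (MI) by permanent ligation of the left anterior descending artery. The labels number the hearts but do not tie them across groups, and give neither infarct size nor the part of the ventricle that was sampled.

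Voltage-gated sodium channels open on depolarisation and carry the rapid upstroke of the action potential. An alpha subunit forms the pore, and beta subunits alter its gating and its delivery to the membrane. HCN channels open on hyperpolarisation and carry the pacemaker ("funny") current, which is known best from the sinoatrial node, while working ventricular muscle of the adult has little of it. Of the alpha subunit genes, Scn4a encodes Nav1.4, the main channel of skeletal muscle, Scn10a encodes Nav1.8, known from sensory neurons, and Scn7a encodes Nax, an atypical channel linked to sensing of extracellular sodium. Scn4b and Scn3b encode beta subunits. Hcn4 is the main HCN gene of the sinoatrial node, and Hcn2 is the HCN gene best known from ventricle.

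After MI, 6 of the 7 genes fell in the mean of the genotypes, against 32.7% of all genes tested, 5 of them by at least 2-fold, against 13.2%, and none rose, against 32.9%. Scn4b fell about 10.1-fold, a value that single libraries moved by over 1.5-fold, Scn4a 6.13-fold, Hcn4 3.16-fold, Hcn2 2.85-fold, Scn10a 2.54-fold and Scn7a 1.51-fold, while Scn3b did not pass the test. The 11 cardiomyocyte marker genes measured beside them all fell too. None of the 7 genes passed the limma-trend test between genotypes. Scn4a after MI did pass it with array weights, or without PKM2fl/fl MI replicate 3, the library with the lowest cardiomyocyte marker level. Neither edgeR with its filter on low counts nor DESeq2 called any, though DESeq2 gave no adjusted p for some. Without the filter, edgeR tested 40116 genes and called Hcn2 after sham and Scn4a and Scn4b after MI. The share of all genes called that way is not given here. For Hcn2 after sham the unadjusted edgeR p was 6.13e-06 without the filter and 0.0215 with it.

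The promoters of the 4 genes with the most reads among those that fell by at least 2-fold are shown, because these genes moved together after MI. The genes lie on chromosome 11 (Scn4a), chromosome 9 (Scn4b and Hcn4) and chromosome 10 (Hcn2). The sequences are RefSeq's for GRCm38.p6, the assembly that UCSC calls mm10, and run 5′ to 3′ on the gene's strand from 250 bases before to 50 bases after a transcript start. They cover chr11:106349341-106349640 (minus strand, Scn4a), chr9:45138374-45138673 (plus strand, Scn4b), chr10:79716384-79716683 (plus strand, Hcn2) and chr9:58822699-58822998 (plus strand, Hcn4). Capitals mark GC boxes (GGGCGG, or CCGCCC on the other strand).
Scn4a: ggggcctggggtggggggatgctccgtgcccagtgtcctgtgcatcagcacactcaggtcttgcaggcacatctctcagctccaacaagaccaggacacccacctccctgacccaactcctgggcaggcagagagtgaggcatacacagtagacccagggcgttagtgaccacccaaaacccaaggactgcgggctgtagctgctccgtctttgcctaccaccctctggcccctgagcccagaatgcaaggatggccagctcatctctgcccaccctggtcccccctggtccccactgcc
Scn4b: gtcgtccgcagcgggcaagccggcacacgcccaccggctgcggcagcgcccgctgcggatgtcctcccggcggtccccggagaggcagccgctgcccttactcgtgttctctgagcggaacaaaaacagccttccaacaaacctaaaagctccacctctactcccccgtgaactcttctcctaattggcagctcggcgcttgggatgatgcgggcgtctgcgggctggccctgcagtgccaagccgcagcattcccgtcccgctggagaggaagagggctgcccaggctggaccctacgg
Hcn2: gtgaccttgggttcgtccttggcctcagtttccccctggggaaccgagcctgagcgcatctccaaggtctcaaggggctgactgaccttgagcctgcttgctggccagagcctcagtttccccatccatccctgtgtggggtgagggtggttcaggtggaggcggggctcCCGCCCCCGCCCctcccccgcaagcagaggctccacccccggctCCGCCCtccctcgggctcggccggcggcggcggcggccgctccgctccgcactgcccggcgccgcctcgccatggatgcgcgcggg
Hcn4: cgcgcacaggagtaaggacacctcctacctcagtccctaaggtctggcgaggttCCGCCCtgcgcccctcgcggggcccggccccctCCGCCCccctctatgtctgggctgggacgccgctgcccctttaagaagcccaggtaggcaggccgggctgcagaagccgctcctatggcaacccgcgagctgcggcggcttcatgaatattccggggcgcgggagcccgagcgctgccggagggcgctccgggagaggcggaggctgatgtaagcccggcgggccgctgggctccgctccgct

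Both HCN windows held GC boxes, 3 in Hcn2 and 2 in Hcn4, and neither of the sodium channel windows held one. Of 32851 mouse promoter windows of the same length, 35.7% held a GC box. The GC content was 72.3% for Hcn2, 71.7% for Hcn4, 66.3% for Scn4b and 63.0% for Scn4a, against a median of 52.7% over all windows. Scn4a stood apart in CG dinucleotides, with 4, whereas Scn4b and Hcn2 had 26 each and Hcn4 had 31. The median over all windows was 7. A TATA box (TATAAA on either strand) was in none of the 4 windows and in 13.6% of all windows. The letters CANNTG, an E-box, which reads alike on both strands, occurred once in Hcn2 and in none of the other 3 windows, against 72.3% of all windows. The Scn4a window begins inside the span that RefSeq gives the gene, so that it belongs to a start within the gene.

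The 7 genes lie on 4 chromosomes. In GRCm38.p6, 4 of them, Scn4b, Scn3b, Scn10a and Hcn4, lie on chromosome 9, which also carries Pkm, and Hcn4 (58822949 to 58863175) is the nearest, 793400 bases from Pkm. Scn3b spans 40269216 to 40291618, Scn4b 45138624 to 45154155 and Scn10a 119608456 to 119719322. Scn4a spans 106317545 to 106365559 on chromosome 11, Scn7a 66673426 to 66784910 on chromosome 2 and Hcn2 79716634 to 79736108 on chromosome 10. No other RefSeq gene overlapped any of the 7 spans.

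The libraries held 20623769 to 71855101 reads on genes. A single gene model, CT010467.1, took 0.111% to 25.1% of the reads, and above 20% in 2 libraries, PKM2fl/fl MI replicates 1 and 3. Values are read counts divided by the library's size factor, called normalized counts here. Whole-gene Pkm read 7779 to 12076 normalized counts in the 8 PKM2fl/fl libraries and 10120 to 16113 in the 8 PKM2-/- libraries, but it also counts the isoform that does not carry exon 10, so it checks no genotype label. The cardiomyocyte markers were abundant in every library, with a summed level of 1480879 normalized counts or more in the 10 unoperated and sham hearts. Skeletal muscle markers, for which Scn4a would be typical, summed to between 74.6 and 171 normalized counts in the 16 libraries. Isl1, a transcription factor of the sinoatrial node, was nearly absent, with a mean of 0.0572 normalized counts over the 16 libraries. It belonged to a list of 13 sinus node and conduction genes, of which 11 passed the filter on low values. Tbx3, a transcription factor of the conduction system, had a mean of 366 normalized counts. The low level of Isl1 thus does not stand for the other genes of that list.

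Levels were compared between genes per kb of exon, over both genotypes together. In unoperated hearts (n = 4) Scn7a was highest, at 173 ± 26.7 normalized counts per kb (SD), followed by Hcn2 at 119 ± 30.7, Scn4a at 97.2 ± 29.0, Scn4b at 64.6 ± 45.5 and Hcn4 at 34.5 ± 10.6. Far below came Scn3b at 4.64 ± 0.893 and Scn10a at 2.65 ± 0.929. Every pair of neighbours in this order overlapped between hearts except Hcn4 and Scn3b. The lowest Hcn4 value, 19.0 per kb, lay above the highest Scn3b value, 5.59 per kb.

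After MI (n = 6) the order per kb changed. Scn7a remained highest at 129 ± 11.7 normalized counts per kb, and its lowest heart, at 117, lay above the highest Hcn2 heart, at 56.4. Hcn2 averaged 41.7 ± 15.7, Scn4a 12.1 ± 9.74, Hcn4 10.6 ± 5.55, Scn4b 8.43 ± 11.2, Scn3b 3.37 ± 1.54 and Scn10a 0.885 ± 0.503 per kb. The 3 genes Scn4a, Hcn4 and Scn4b were thus close together and overlapped, as did Scn4b and Scn3b. Scn3b, whose lowest heart had 2.26 per kb, did not overlap Scn10a, whose highest had 1.80.

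**Figure D1:**
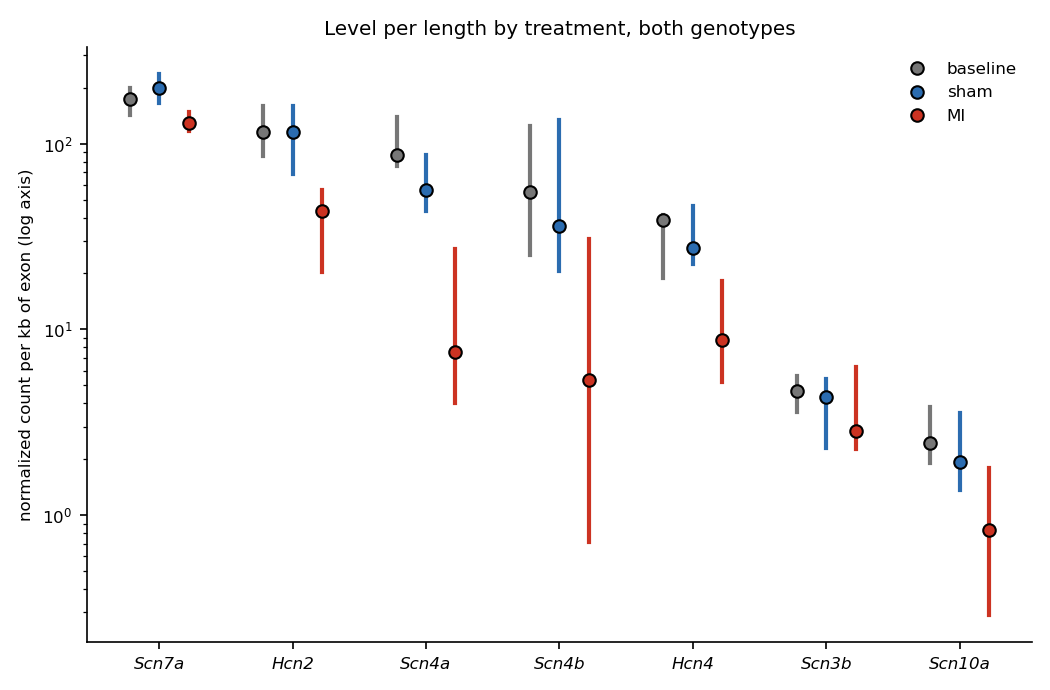
Normalized counts per kb of exon (vertical log axis) of the 7 genes in unoperated hearts (n = 4), sham hearts (n = 6) and MI hearts (n = 6), both genotypes together; points are medians and lines run from the lowest to the highest heart. Scn7a stays at or above 117 per kb in every heart, whereas the Scn4a median goes from 87.1 per kb at baseline to 7.52 after MI.

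The comparison of MI with sham asks how the infarcted ventricle differs 3 days after injury. In the mean of the genotypes, 6 of the 7 genes were lower at an adjusted p under 0.05 (limma-trend, Benjamini-Hochberg over all 20576 genes), against 32.7% of all genes tested. A fall of at least 2-fold was met by 5 of the 7, against 13.2% of all genes. No member was higher, against 32.9% of all genes. Over the 7 genes the log2 fold change had a median of -1.51, and over all genes of 0.01. In 4 of the 7 genes every one of the 6 MI hearts lay below every one of the 6 sham hearts, which held for 20.2% of all genes. Fold changes are on the log2(normalized count + 1) scale, which understates the change of the genes with few reads. In bulk tissue, fewer cells of a type and less RNA per cell cannot be told apart.

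**Figure D2:**
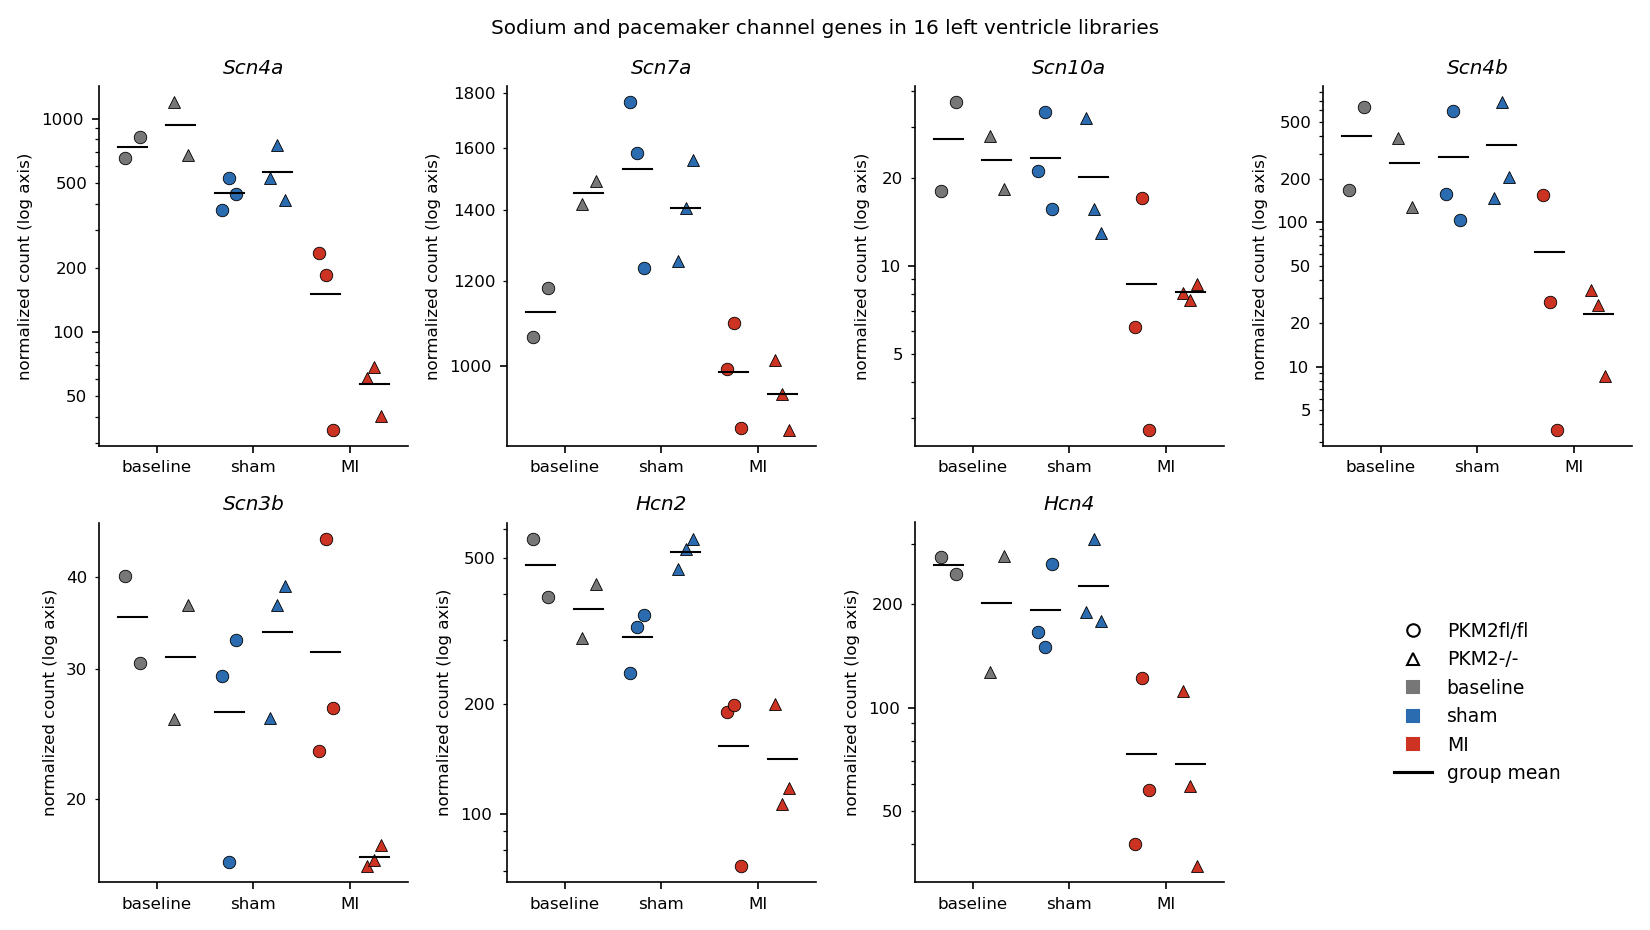
Normalized counts (vertical log axis, its range set per gene) of the 7 genes in each of 16 libraries, by treatment and genotype; each point is a heart and each bar a group mean. Scn4a, Scn7a, Hcn2 and Hcn4 in the 6 MI hearts lie below all 6 sham hearts, while Scn4b, Scn10a and Scn3b overlap.

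Among the pore-forming subunits, Scn4a fell most. PKM2fl/fl hearts had 374, 530 and 444 normalized counts after sham and 233, 184 and 34.8 after MI. PKM2-/- hearts had 526, 752 and 415 after sham and 60.8, 68.6 and 40.4 after MI. No MI heart reached the lowest sham heart in either genotype, and the lowest PKM2fl/fl MI heart, replicate 3, lay below all 3 PKM2-/- MI hearts. The log2 fold change was -2.62 ± 0.36 (SE, limma-trend adjusted p = 1.03e-05) in the mean of the genotypes. It was -1.94 in PKM2fl/fl hearts (adjusted p = 0.0047) and -3.29 in PKM2-/- hearts (adjusted p = 5.35e-05). Without MI replicate 3 the PKM2fl/fl value was -1.10 and still called (adjusted p = 0.00576), and with the CT010467.1 level as a covariate it was -1.30 and not called (adjusted p = 0.169).

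Scn7a, the most abundant of the 7 per kb, fell least among the 6 genes that were called. Its sham values were 1765, 1582 and 1235 normalized counts in PKM2fl/fl hearts and 1252, 1405 and 1558 in PKM2-/- hearts. After MI they were 992, 1096 and 873 in PKM2fl/fl hearts and 1012, 941 and 871 in PKM2-/- hearts. The highest MI heart, at 1096, was below the lowest sham heart, at 1235. The log2 fold change was -0.60 ± 0.09 (SE, adjusted p = 3.53e-05), with -0.62 in PKM2fl/fl hearts and -0.57 in PKM2-/- hearts. Scaled to total reads on genes in place of the deposited size factors, it was -0.43 and no longer called (adjusted p = 0.0907), while the median of all genes moved to 0.18.

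Scn10a was near the limit of detection. Sham hearts had 12 to 36 reads and MI hearts 3 to 16, which left wide counting error. As normalized counts, the PKM2fl/fl values were 21.2, 33.9 and 15.7 after sham and 6.18, 17.1 and 2.74 after MI, and the highest MI heart overlapped the sham hearts. The PKM2-/- values were 32.2, 15.7 and 12.9 after sham and 8.11, 7.62 and 8.66 after MI, without overlap. The log2 fold change in the mean of the genotypes was -1.34 ± 0.38 (SE, adjusted p = 0.00542). It was -1.57 (adjusted p = 0.0225) in PKM2fl/fl hearts and -1.12 (adjusted p = 0.0874), not called, in PKM2-/- hearts. Without the 2 libraries with over 20% of reads on CT010467.1, the mean of the genotypes was -0.74 and not called (adjusted p = 0.102). The PKM2fl/fl value was -1.04 and not called without MI replicate 3 (adjusted p = 0.123), and -2.18 and called without MI replicate 2 (adjusted p = 0.00237). The PKM2fl/fl call was also lost with edgeR (adjusted p = 0.0504), with array weights (adjusted p = 0.0765) and with only the compared groups in the fit (adjusted p = 0.0658).

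Of the beta subunits, Scn4b had the steepest fall and the widest spread. Its sham values were 157, 595 and 104 normalized counts in PKM2fl/fl hearts and 148, 682 and 207 in PKM2-/- hearts, and its unoperated values were 167 and 630 in PKM2fl/fl and 388 and 128 in PKM2-/- hearts. One heart per sham group was thus well above the other two, in the same treatment and genotype. After MI the values were 156, 27.9 and 3.66 in PKM2fl/fl hearts and 34.0, 26.7 and 8.66 in PKM2-/- hearts. PKM2fl/fl MI replicate 1, at 156, overlapped the sham hearts, and the other 5 MI hearts lay below every sham heart. The log2 fold change was -3.34 ± 0.73 (SE, adjusted p = 9.08e-04) in the mean of the genotypes, -2.96 (adjusted p = 0.0269) in PKM2fl/fl and -3.71 (adjusted p = 0.00653) in PKM2-/- hearts. The mean of the genotypes was -2.69 without PKM2fl/fl MI replicate 3 and -3.96 without PKM2fl/fl MI replicate 1, and called in both. The PKM2fl/fl value was -4.21 without MI replicate 1, and the PKM2-/- value was -3.06 without sham replicate 2, both still called. The PKM2fl/fl call was lost without MI replicate 3 (-1.68, adjusted p = 0.153), without sham replicate 2 (-2.23, adjusted p = 0.122), with edgeR (adjusted p = 0.0569), with DESeq2 (adjusted p = 0.103), with array weights (adjusted p = 0.0618) and with only the compared groups in the fit (adjusted p = 0.0714).

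Scn3b was the exception. PKM2fl/fl hearts had 29.4, 16.4 and 32.8 normalized counts after sham and 23.2, 45.0 and 26.5 after MI, which overlapped widely. PKM2-/- hearts had 25.7, 36.6 and 38.8 after sham and 16.2, 16.5 and 17.3 after MI, with no overlap. The mean of the genotypes, -0.35 ± 0.23 (SE, adjusted p = 0.206), did not pass the test. In PKM2-/- hearts it fell by 0.95 on the log2 scale (adjusted p = 0.0227), and the value in PKM2fl/fl hearts was 0.26 (adjusted p = 0.542). The PKM2-/- call rested on 12 to 36 reads per library. It was lost without PKM2-/- sham replicate 2 or 3 or MI replicate 1 or 2, where the adjusted p ran from 0.0507 to 0.0744, and under scaling to total reads (adjusted p = 0.437).

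Both pacemaker channel genes fell. Hcn2 had 243, 324 and 350 normalized counts in PKM2fl/fl sham hearts and 190, 199 and 72.2 in PKM2fl/fl MI hearts. In PKM2-/- hearts it had 468, 530 and 564 after sham and 200, 107 and 118 after MI. The MI hearts lay below the sham hearts in each genotype. The log2 fold change was -1.51 ± 0.23 (SE, adjusted p = 3.51e-05) in the mean of the genotypes, -1.10 (adjusted p = 0.0113) in PKM2fl/fl hearts and -1.92 (adjusted p = 1.45e-04) in PKM2-/- hearts. Without PKM2fl/fl MI replicate 3 the PKM2fl/fl value was -0.63, just short of the threshold (adjusted p = 0.0532). With the CT010467.1 level as a covariate it was -0.54 and not called (adjusted p = 0.364). Without both libraries high in CT010467.1, which left 1 MI heart in that group, it was -0.60.

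Hcn4 went from 166, 150 and 262 normalized counts after sham to 40.2, 122 and 57.6 after MI in PKM2fl/fl hearts. In PKM2-/- hearts it went from 190, 310 and 179 to 112, 59.1 and 34.6. Every MI heart was again below every sham heart, the closest being 122 and 150. The log2 fold change was -1.66 ± 0.31 (SE, adjusted p = 2.31e-04) in the mean of the genotypes, -1.49 (adjusted p = 0.0104) in PKM2fl/fl hearts and -1.82 (adjusted p = 0.00241) in PKM2-/- hearts. In PKM2fl/fl hearts alone the call was lost without MI replicate 1 (-1.15, adjusted p = 0.0559). It was also lost with the CT010467.1 level as a covariate (-0.60, adjusted p = 0.432). Without both libraries high in CT010467.1, which left 1 MI heart in that group, the value was -0.61.

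Within each genotype, 6 of the 7 genes were called lower in PKM2fl/fl hearts, all but Scn3b, against 25.3% of all genes, and 5 fell by at least 2-fold, against 11.1%. In PKM2-/- hearts 6 were called lower, all but Scn10a, against 28.1%, and 4 fell by at least 2-fold, against 14.3%. MI and sham values did not overlap for 4 of the 7 genes in PKM2fl/fl hearts, against 29% of all genes with MI lower, and for all 7 in PKM2-/- hearts, against 30.6%. In PKM2fl/fl hearts the count was 4 with edgeR, 4 with array weights and 4 with only the compared groups in the fit, each without Scn4b and Scn10a. It was 3 without PKM2fl/fl MI replicate 3. Leaving out both PKM2fl/fl MI libraries with over 20% of reads on CT010467.1 left 1 MI heart in that group, so no count is given. The share of all genes called under these choices is not given here.

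**Figure D3:**
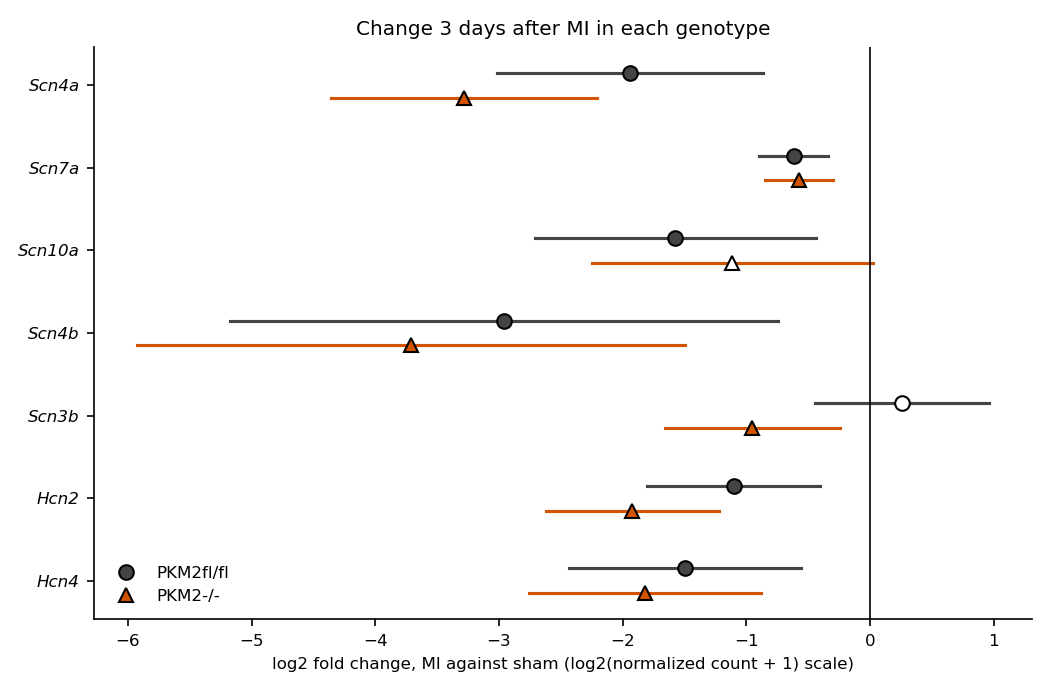
log2 fold change of MI against sham (horizontal axis, log2(normalized count + 1) scale) for each gene in PKM2fl/fl (circles) and PKM2-/- hearts (triangles), 3 hearts per group, with 95% intervals; filled points passed an adjusted p of 0.05. The intervals of the genotypes overlap for every gene, and the open points are Scn3b in PKM2fl/fl (0.26) and Scn10a in PKM2-/- hearts (-1.12).

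Markers of cell types moved with these falls. All 11 cardiomyocyte markers were lower after MI in the mean of the genotypes, with log2 fold changes from -0.98 (Actc1, an actin) to -2.31 (Myh6, the adult myosin heavy chain). Their summed level was 1480879 to 1839348 normalized counts in the sham hearts and 332059 to 735011 in the MI hearts. Fibroblast markers summed to 22051 to 40094 after sham and 117062 to 156575 after MI, with 5 of 7 called higher and 1 lower. Leukocyte markers summed to 4213 to 9833 after sham and 20997 to 37341 after MI, with 7 of 10 tested markers higher and none lower. Endothelial marker sums were 17631 to 22042 after sham and 21319 to 25746 after MI, with 1 of 6 called lower and 2 higher.

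Cells in which Scn10a and Scn7a are otherwise known were also followed. Schwann cell markers summed to 338 to 513 normalized counts after sham and 204 to 298 after MI, without overlap, and 3 of the 5 tested (Sox10, Gfra3 and Cdh19) were lower and Gap43 higher. Foxd3, a neural crest factor, was at 0 in every library. Of the neuron markers, 3 of 7 were high enough to be tested, and Dbh was lower and Uchl1 higher. Chrna3 was at 0 in every sham and MI library. Mural cell markers, for pericytes and smooth muscle, summed to 12310 to 15919 after sham and 7655 to 11105 after MI, with 3 of 5 lower and 2 higher. Skeletal muscle markers summed to 74.6 to 122 after sham and 101 to 171 after MI, and of the 4 tested 1, Tnnt3, was higher and none lower. The part of any of these cell types in the changes of the 7 genes was not tested.

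To set the channel genes against the muscle in the same library, the mean log2 level of the 11 cardiomyocyte markers was subtracted. That mean ran from 16.70 to 16.99 in the 6 sham hearts and from 14.46, in PKM2fl/fl MI replicate 3, to 15.67 in the 6 MI hearts. On this scale the median of all genes moved up to 1.91 after MI by construction, so that 92.3% of genes were called higher and 0.617% lower. Scn4a was still called lower, at -0.72 (95% interval -1.25 to -0.18, adjusted p = 0.0129), and so was Scn4b, at -1.44 (95% interval -2.64 to -0.24, adjusted p = 0.0235). Within the genotypes Scn4a was at -0.24 in PKM2fl/fl hearts, not called (adjusted p = 0.54), and at -1.19 in PKM2-/- hearts (adjusted p = 0.00457). Scn4b was called in neither genotype alone, at -1.25 (adjusted p = 0.153) in PKM2fl/fl and -1.62 (adjusted p = 0.0665) in PKM2-/- hearts. In the mean of the genotypes, the Scn4b call was lost when any 1 of 4 libraries was left out (PKM2fl/fl sham 2 and MI 3, PKM2-/- sham 2 and MI 3), with an adjusted p of 0.0655 to 0.111, and the Scn4a call was lost with array weights (-0.46, adjusted p = 0.0742).

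The other 5 genes were not lower than the markers. Scn7a was higher by 1.30 (adjusted p = 6.26e-07), Scn3b by 1.55 (adjusted p = 4.51e-05) and Hcn2 by 0.39 (adjusted p = 0.0438). Leaving out single libraries removed the Hcn2 call in 13 of 16 fits, where the adjusted p reached 0.131. Hcn4, at 0.24 (95% interval -0.38 to 0.86, adjusted p = 0.436), and Scn10a, at 0.55 (95% interval -0.24 to 1.35, adjusted p = 0.167), did not pass the test. The difference from the marker mean was -6.39 ± 0.18 log2 units (SD, n = 6) for Scn7a in sham hearts and -5.09 ± 0.43 in MI hearts. For Scn4a it was -7.95 ± 0.41 after sham and -8.67 ± 0.63 after MI.

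**Figure D4:**
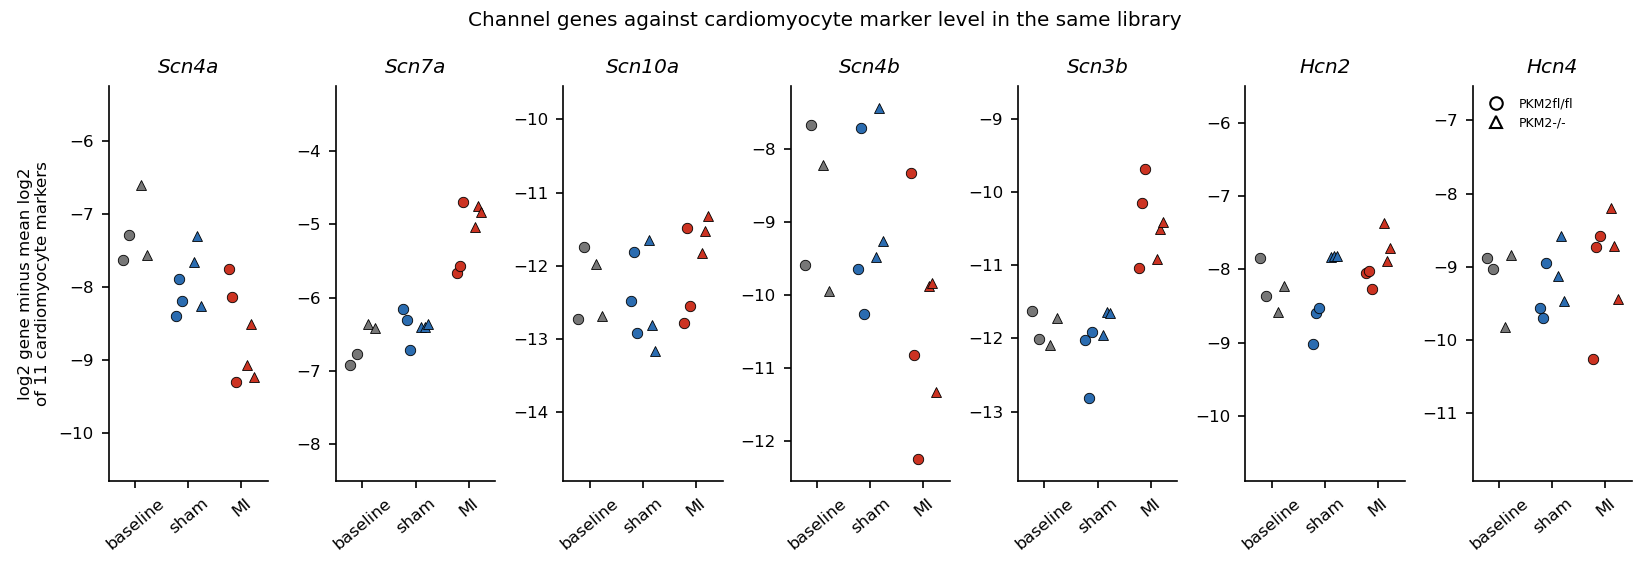
log2 level of each gene minus the mean log2 level of 11 cardiomyocyte markers in the same library (vertical axis, the same span in every panel), by treatment, for PKM2fl/fl (circles) and PKM2-/- hearts (triangles). Scn7a and Scn3b lie higher against the markers after MI than after sham, by 1.30 and 1.55 on average, while Scn4a and Scn4b lie lower, at -0.72 and -1.44, with overlap.

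The genotype comparisons ask whether loss of PKM2 alters these genes. In unoperated and sham hearts the CT010467.1 share of reads was higher in every PKM2-/- library than in any PKM2fl/fl library. There that share and genotype cannot be told apart. In unoperated hearts none of the 7 was called by limma-trend or by edgeR with its filter on low counts, against 0.00972% of all genes by limma-trend. DESeq2 gave an adjusted p for Scn7a alone and did not call it. By limma-trend 1 had an unadjusted p under 0.05. That gene was Scn7a, with 1064 and 1184 normalized counts in PKM2fl/fl hearts and 1416 and 1490 in PKM2-/- hearts. Its log2 difference, PKM2-/- minus PKM2fl/fl, was 0.37 (95% interval 0.03 to 0.71, adjusted p = 1). Under scaling to total reads it turned to -0.22, while the median of all genes moved to -0.59. It was the 1 gene of the 7 whose unoperated groups did not overlap, as was the case for 34.9% of all genes at 2 hearts against 2.

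After sham surgery none was called by limma-trend, filtered edgeR or DESeq2, against 0.00972% of all genes, and 1, Hcn2, had an unadjusted p under 0.05. Hcn2 was higher in each of the 3 PKM2-/- sham hearts (468 to 564 normalized counts) than in the 3 PKM2fl/fl sham hearts (243 to 350). The log2 difference was 0.78 (95% interval 0.08 to 1.48, adjusted p = 0.438), and edgeR without a filter called it (adjusted p = 7.63e-04). Its unoperated values went the other way and overlapped, at 565 and 391 in PKM2fl/fl and 303 and 425 in PKM2-/- hearts. Separate groups were seen for 1 of the 7 genes and for 16.5% of all genes.

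After MI none of the 7 was called by limma-trend, against 0.967% of all genes, nor by filtered edgeR, nor by DESeq2, which gave no adjusted p for Scn10a. By limma-trend Scn3b alone had an unadjusted p under 0.05. Scn3b was lower in all 3 PKM2-/- MI hearts (16.2 to 17.3 normalized counts) than in the PKM2fl/fl MI hearts (23.2 to 45.0), with a log2 difference of -0.82 (95% interval -1.53 to -0.12, adjusted p = 0.221). It was the 1 gene of the 7 with separate groups, against 18.9% of all genes. For Scn4a the log2 difference was -1.04 (95% interval -2.12 to 0.03, adjusted p = 0.31). Without PKM2fl/fl MI replicate 3, the heart with 34.8 normalized counts, it was -1.89 and called (adjusted p = 7.92e-04), and with array weights, which gave that library a weight of 0.25, it was -1.51 and called (adjusted p = 0.0162). edgeR without a filter called Scn4a (adjusted p = 1.53e-10) and Scn4b (adjusted p = 1.35e-04). PKM2fl/fl MI replicate 3 also had the lowest cardiomyocyte marker level of the 16 libraries. Replicates 1 and 2 of that group had mean log2 marker levels of 15.63 and 15.67, above the 3 PKM2-/- MI hearts, at 14.60 to 15.02. Against the markers, the Scn4a difference between genotypes after MI was -0.54 and not called (limma-trend adjusted p = 0.287). The part of the marker level in the Scn4a calls was not tested.

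The interaction asks whether the response to MI differed between genotypes. None of the 7 passed the test by limma-trend, filtered edgeR or DESeq2, and neither did any other gene by limma-trend (0% of 20576, with 1703 at an unadjusted p under 0.05). Scn3b had the only unadjusted p under 0.05 among the 7, with a log2 difference of the MI responses, PKM2-/- minus PKM2fl/fl, of -1.21 (95% interval -2.21 to -0.21, adjusted p = 0.54). For Scn4a it was -1.34 (95% interval -2.86 to 0.18, adjusted p = 0.657), and without PKM2fl/fl MI replicate 3 it was -2.19 and called (adjusted p = 0.0119). edgeR without a filter called Scn4a (adjusted p = 4.30e-09) and Scn4b (adjusted p = 3.87e-04). For Hcn2 it was -0.82 (95% interval -1.81 to 0.17) and for Scn4b -0.75 (95% interval -3.88 to 2.38). Scn7a had the narrowest interval, -0.35 to 0.44 around a difference of 0.04. Against the cardiomyocyte markers, the Scn4a interaction was -0.96 and not called (limma-trend adjusted p = 0.757).

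Sham surgery itself was compared with no surgery over both genotypes. None of the 7 genes was called by limma-trend, filtered edgeR or DESeq2, against 6.54% of all genes by limma-trend, and none had an unadjusted p under 0.05. Scn4a had the largest difference. It ranged from 653 to 1193 normalized counts in the 4 unoperated hearts (median 749.5) and from 374 to 752 in the 6 sham hearts (median 485). The log2 difference was -0.72 (95% interval -1.57 to 0.13, adjusted p = 0.356), and it was called when PKM2fl/fl MI replicate 3, which belongs to neither group but enters the shared estimate of spread, was left out (adjusted p = 0.0388).

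Scn4a and Scn4b, an alpha and a beta subunit, varied together from heart to heart. Pearson's r over the 16 libraries was 0.91 on the log2 scale, and 0.86 after each group's mean was removed. The libraries share the fall after MI, their depth and their cell makeup. Over the 10 unoperated and sham libraries r was 0.53. Hcn2 and Hcn4 had an r of 0.86 over all libraries, 0.47 within groups and 0.57 over the 10 libraries without MI. Scn3b followed the sodium channel genes least over the 16 libraries. Its r was 0.24 with Scn10a, 0.26 with Scn4b, 0.34 with Scn7a and 0.52 with Scn4a. Within groups it had an r of 0.60 with Hcn4.

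**Figure D5:**
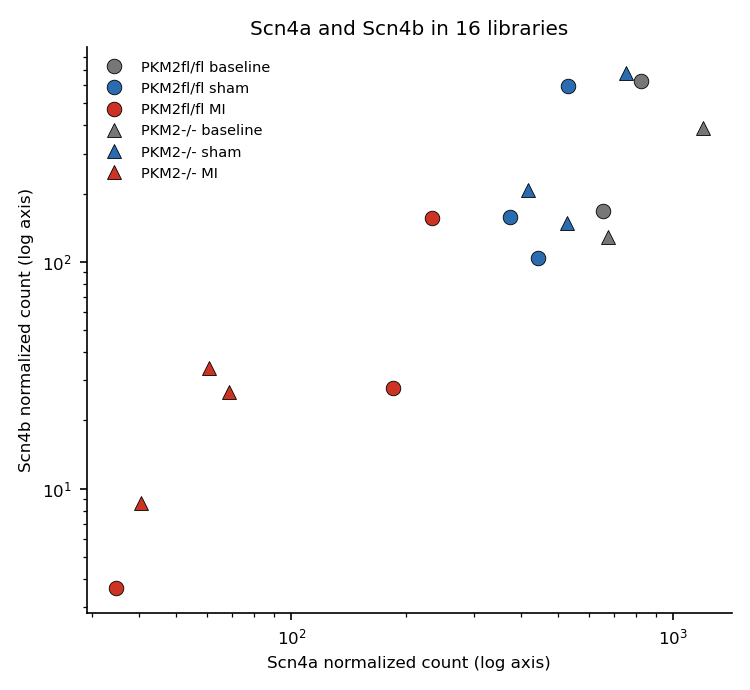
Scn4b against Scn4a in normalized counts (both axes logarithmic) in the 16 libraries, coloured by treatment, with circles for PKM2fl/fl and triangles for PKM2-/- hearts. The 6 MI hearts lie at the lower left, from 34.8 to 233 for Scn4a, and 3 of the unoperated and sham hearts stand highest for Scn4b (595, 630 and 682).

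The genes whose levels followed each channel gene most closely were found by Pearson's r on the log2 scale over the 16 libraries, which share the MI response. For Scn4a they were Mylk4, a myosin light chain kinase (r = 0.98), A630019I02Rik (0.98) and Chrna10, a nicotinic acetylcholine receptor subunit (0.98). For Scn4b they were Golga2, a Golgi matrix protein (0.95), Amz1 (0.94) and Gm13554 (0.94). Hcn2 was followed by Letm1, a mitochondrial inner membrane protein (0.97), Mapk8ip3 (0.97) and Ilrun (0.97), and Hcn4 by Cdk5rap1, a tRNA-modifying enzyme (0.95), Ddc, the aromatic amino acid decarboxylase (0.94), and Gm29246 (0.94). Scn7a was followed by Amd1 of polyamine synthesis (0.95), Pdxdc1 (0.95) and Pnrc1 (0.94). For Scn10a the first were 4931403E22Rik (0.93) and Gm18666 (0.91), and for Scn3b they were G430095P16Rik (0.82), Gm15868 (0.82) and Gm38910 (0.80), the lowest values among the 7.

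Of 11 other sodium channel and HCN genes, 7 could be tested, 2 were lower after MI, none was higher and 5 did not pass. Scn3a, an alpha subunit known from brain, had 109 to 144 normalized counts in the sham hearts and 64.9 to 99.7 in the MI hearts, with a log2 fold change of -0.60 ± 0.14 (SE, adjusted p = 0.00161). Of 18 genes for channel partners, 17 could be tested, 12 were lower and 2 higher. Fgf13, a factor that binds the tail of sodium channel alpha subunits, had a log2 fold change of -1.94 ± 0.16 (SE, adjusted p = 4.78e-08), Gpd1l, linked to inherited sodium channel arrhythmia, of -1.05 ± 0.09 (adjusted p = 5.14e-08) and Ank2, an ankyrin that anchors membrane proteins, of -1.36 ± 0.12 (adjusted p = 1.00e-07). Lrmp, a membrane protein known to alter HCN4 gating, rose, at 1.68 ± 0.13 (adjusted p = 3.02e-08). In which cells Lrmp rose was not tested.

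Genes that mark the conduction system and the atria moved in both directions. Of 13 sinus node and conduction genes, 11 could be tested, of which 7 were lower and 3 higher. Tbx3, a transcription factor of the conduction system, fell (log2 fold change -1.11), as did Irx3, an Iroquois factor of the Purkinje network (-1.57), while Cacna1d, an L-type calcium channel of pacemaker cells, rose (1.88). Summed levels of the 13 genes were 4132 to 4461 normalized counts after sham and 4226 to 5097 after MI. Of 5 atrial markers, Nppa, the atrial natriuretic peptide, rose (log2 fold change 1.31) and 2 did not pass the test. Myl7, an atrial myosin light chain, fell (-1.67 ± 0.70, SE, limma-trend adjusted p = 0.0466). No atrial marker was called lower in either genotype alone. Of the 4 tested, 3 were already higher in sham than in unoperated hearts, with a median log2 difference of 2.14 over the 4. These genes were taken from a list of markers, and which cells they came from was not tested.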

How the data were processed

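RNA was sequenced from the left ventricles of 16 mice after rRNA depletion (paired-end, Illumina NextSeq). After PRINSEQ trimming, HISAT2 alignment was made to mm10 by the authors, with featureCounts for the counting and DESeq2 for the comparisons. Strand and multi-mapping settings are not given in the sources used here. The deposited signal is the number of reads per gene after scaling by DESeq2 size factors. Dividing by the value of 1 read gave whole numbers (tolerance 0.05) for 100% of values, so reads were recovered. Columns of the authors' own baseline comparison (mean, fold change, its error, test score and p-values) were not used, and 0 columns lacked a sample.

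Groups came from the sample titles. The main test was limma-trend (limma 3.58.1, R 4.3.3) on log2(value + 1) for 20576 genes with a mean of at least 10, with all 16 libraries in 6 groups sharing 1 spread, Benjamini-Hochberg adjustment and a threshold of 0.05. A further threshold was 2-fold. The scripts were tested on simulated data. edgeR 4.0.16 and DESeq2 1.42.0 on recovered reads, other scalings, filters and left-out libraries were alternatives. P-values of the main test rest on the spread between hearts within groups, pooled over all 6 groups, MI hearts included.

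Lengths per kb are the union of a gene's exons in GENCODE M39 (GRCm39). Promoters and positions are RefSeq's, with promoters listed for 6 of the 7 genes. The 7 genes, the marker lists and the partner lists were chosen with earlier results of these data known. Genes named from the channel and partner lists were past the threshold in MI against sham in the mean of the genotypes, at most 4 per list by smallest p. From the marker lists, some of the genes past that threshold were named as examples, not by rank. Isl1, Foxd3 and Chrna3 were named for their low level and were not tested. By likeness, the 3 genes with the highest r were taken for each of the 7 genes. Not reported here are 1 of the other channel genes past the threshold, 2 genes of the marker lists, whose sums and counts are without them, and 1 gene by likeness.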

Additional observations from a re-analysis of the deposited data

How the results depend on the processing

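In the mean of the genotypes, the number of genes called after MI stayed at 6 of 7 when each of the 16 libraries was left out in turn, with the replicate number as a block (replicate block, 6), and with edgeR and DESeq2. It was 5 with total read scaling, without the libraries with over 20% of reads on CT010467.1 and with the CT010467.1 level as a covariate; the last 2 choices were made after the data were seen. Samples with the same number did not deviate together (median r of -0.03, from -0.20 to 0.13 over 36 pairs). With 2 or 3 hearts per group this check cannot show that the numbers pair no hearts. The block removed 1 call, that of Hcn2 against the markers (adjusted p = 0.0592).

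In PKM2fl/fl hearts the count of 6 was 0 with the CT010467.1 level as a covariate, and 3 to 6 with each library left out. Leaving out the libraries with over 20% of reads on CT010467.1 left 1 MI heart in that group, so no count is given. The share of all genes called under these choices is not given here, so the counts do not single out these genes. In these hearts that level is high in 2 of 3 MI libraries and in no sham library. Centring on cardiomyocyte markers gave 3 calls in PKM2fl/fl hearts, all of them higher after MI (Scn3b, Scn7a and Hcn2). It gave 3 in PKM2-/- hearts, with Scn3b and Scn7a higher and Scn4a lower. On this scale the median of all genes was 1.70 in PKM2fl/fl and 2.10 in PKM2-/- hearts. In the mean of the genotypes, the 5 calls against the markers ranged from 3 to 5 with each library left out. The lowest count came without PKM2fl/fl sham replicate 2, PKM2-/- sham replicate 2 or PKM2-/- MI replicate 3.

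Between genotypes, the counts of 0 became 1 after sham, 2 after MI and 2 for the interaction with edgeR without a filter, and 1 after MI with array weights. Leaving out the libraries high in CT010467.1 left 1 PKM2fl/fl MI heart, so no count after MI or for the interaction is given for that choice. The count of 0 for sham against baseline became 1 with that choice, 1 with edgeR without a filter and 1 with only the compared groups in the fit. Leaving out each library gave 0 to 1 after MI, 0 to 1 for the interaction and 0 to 1 for sham against baseline, the 1 in each case without PKM2fl/fl MI replicate 3. The share of all genes called is not given here for these choices, and edgeR without a filter tested 40116 genes. The counts therefore cannot be set against the whole. The causes were not tested.

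Centring on the markers turned the sign of 5 genes for MI against sham. In the mean of the genotypes, in PKM2fl/fl hearts and in PKM2-/- hearts, the log2 values became 1.30, 1.09 and 1.52 for Scn7a, 0.55, 0.13 and 0.98 for Scn10a, 0.39, 0.60 and 0.17 for Hcn2 and 0.24, 0.21 and 0.27 for Hcn4. Scn3b became 1.55 in the mean and 1.14 in PKM2-/- hearts, and it went from 0.26 to 1.96 in PKM2fl/fl hearts. Without centring, its PKM2fl/fl value ran from -0.035 to 0.44 with each library left out. Total read scaling turned Scn7a at baseline to -0.22. Genes with few reads, Scn10a and Scn3b, are limited by counting error.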
